A study of Mus musculus with 6 samples.

Results

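The Wnt ligands, the Frizzled receptors and the secreted inhibitors of the Sfrp and Dkk families were compared between tumors of 1 cell line grown at different sites. The members were taken by symbol: every Wnt gene, Fzd1 to Fzd10, the Sfrp genes numbered 1 to 5 and Dkk1 to Dkk4, each with the brightest of its array rows. All 37 genes with such symbols in the gene-name reference were measured, 19 ligands, 10 receptors, 4 Sfrp genes and 4 Dkk genes, of 19938 genes in all.

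Wnt proteins are secreted lipid-modified signals that bind a Frizzled receptor at the cell surface. Together with the co-receptors Lrp5 and Lrp6 they stabilise beta-catenin, which then acts on target genes in the nucleus; with other co-receptors they steer cell polarity and movement without it. Sfrp proteins carry a Frizzled-like domain and bind Wnt proteins outside the cell, and Dkk proteins block Lrp5 and Lrp6. In the kidney the pathway builds the nephron during development, with Wnt9b and Wnt11 made by the ureteric bud and Wnt4 by the forming tubules.

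The tumors were grown from Renca, an established mouse renal carcinoma line, in BALB/c mice that carried no other labelled treatment. The cells had been placed in the outer layer of the kidney (3 intrakidney tumors) or under the skin (3 subcutaneous tumors). The tumors were taken to come from separate mice, and they were frozen on day 12. Total RNA of the whole tumor, host tissue included, was hybridised to 1 array per tumor, so fewer cells of a type and less RNA per cell cannot be told apart, and neither can Renca and host transcripts. All values are log2 RMA expression, on which a difference of 1 is a doubling, and all differences are intrakidney minus subcutaneous. A row's brightness also depends on its probes, so levels are compared between arrays and not between genes.

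The arrays correlated at 0.990 to 0.997 with each other across all genes, which are not independent replicates. Of 8 measured markers of renal carcinoma and epithelium, 6 lay above the 40th percentile of all genes, among them Krt8 (13.16 to 13.35), Krt18 (12.00 to 12.23) and Pax8 (10.04 to 10.18). Epcam (39th percentile) and Car9 (31.7th percentile) lay under it. None of the 8 passed the test described next. At an unadjusted p under 0.05 there were 2, Cdh1 (-0.52) and Car9 (0.20), beside 8.43% of all genes. The same 2 were the only ones of the 8 with groups apart, a state that 14.9% of all genes showed. Intrakidney tumor 1 stood apart for dim genes. The lower quartile of all genes was 5.87 on that array and 5.95 to 6.10 on the other 5, and it was the lowest of the 6 arrays for 27.5% of all genes and for 41.8% of the genes at or under the 40th percentile of mean value. Of the Wnt, Frizzled, Sfrp and Dkk genes, 17 lay in that dim part and 20 above it.

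No member passed the test between the sites. With limma and Benjamini-Hochberg adjustment over all 19938 genes, 0 of 37 members had an adjusted p under 0.05, a threshold that 0.231% of all genes passed. At an unadjusted p under 0.05 there were 2 members, Sfrp1 and Fzd6, or 5.41%, beside 8.43% of all genes. The same 2 genes were the only members whose intrakidney and subcutaneous arrays did not overlap, a state that 14.9% of all genes showed. The members' shares at both rules lay under those of all genes. Of the differences, 30 of 37 were smaller than 0.15 on the log2 scale, and the median absolute difference was 0.09 beside 0.08 over all genes.

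The 95% intervals of the differences, which are not adjusted for the number of genes, give the sizes that the arrays allow. They lay inside -1 to 1, which is less than a 2-fold difference, for 36 of 37 members, and the exception was Sfrp2 (-1.21 to 0.38). They held 0 for 35 of 37. An adjusted p above the threshold does not show that the sites had equal levels, and 3 arrays per group limit the precision.

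**Figure D1:**
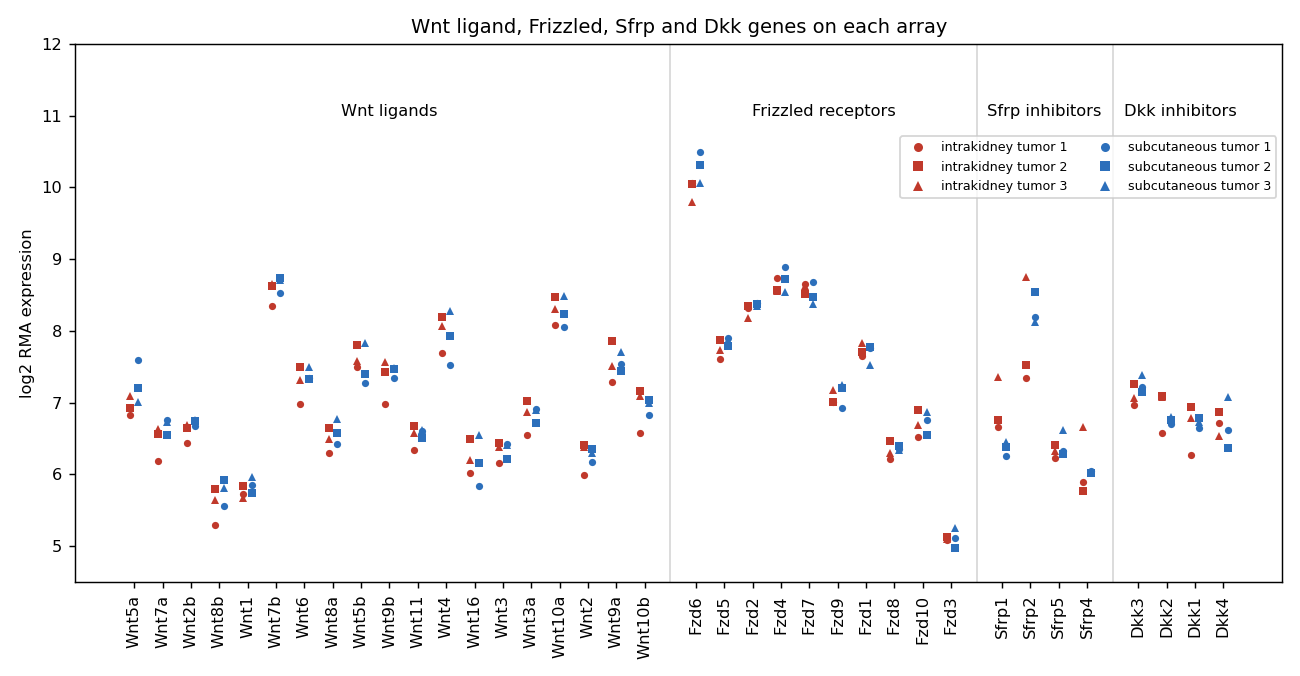
Log2 RMA expression (y axis) of each of the 37 genes (x axis, by family and in order of unadjusted p), with 1 point for each of the 3 intrakidney (red) and 3 subcutaneous (blue) tumors. The groups overlap for every gene except Fzd6 and Sfrp1.

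**Figure D2:**
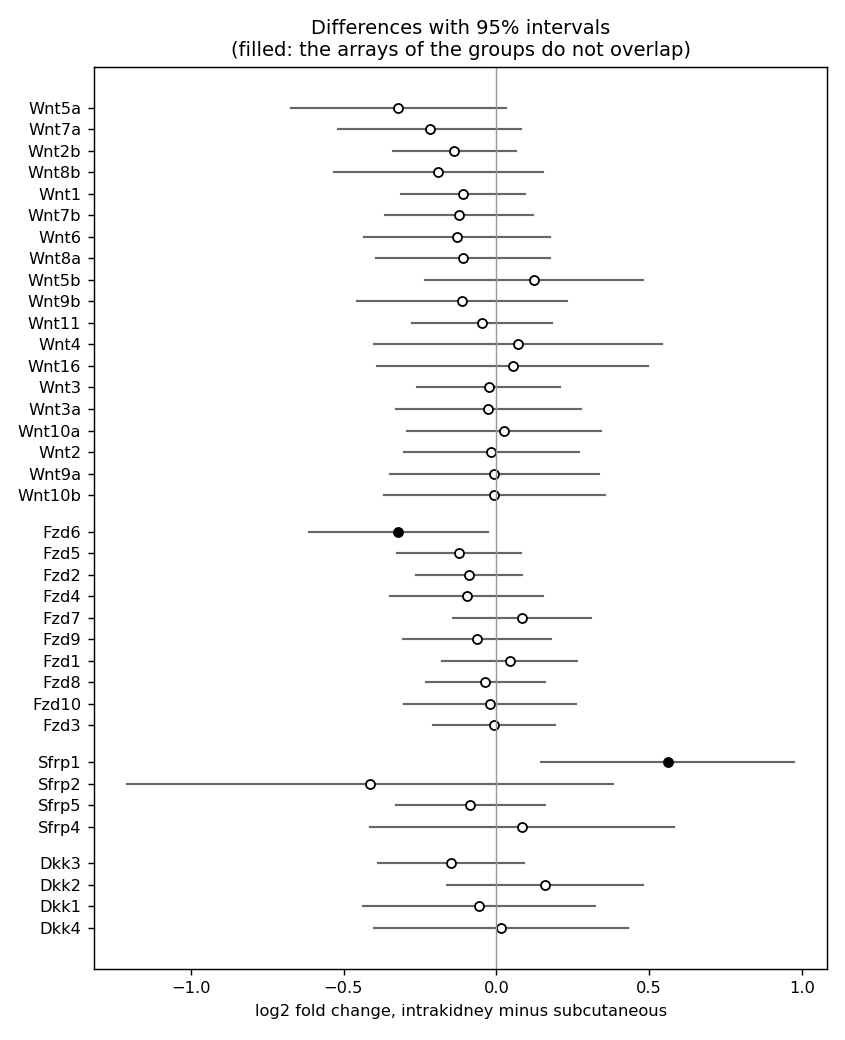
Difference between the sites for each of the 37 genes as log2 fold change, intrakidney minus subcutaneous (x axis), with the 95% interval of the moderated fit as a line. The interval holds 0 for 35 genes, and the widest, of Sfrp2, runs from -1.21 to 0.38.

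The 19 Wnt ligand genes differed little between the sites and more between arrays of 1 site. Their differences ran from -0.32 (Wnt5a) to 0.12 (Wnt5b) with a median of -0.05, beside -0.0058 over all genes, and every interval lay inside -0.7 to 0.7. Averaged over the 19 genes, the arrays of intrakidney tumors 1 to 3 stood at 6.70, 7.08 and 6.99, and those of subcutaneous tumors 1 to 3 at 6.91, 6.96 and 7.10. The groups overlapped, and the lowest and the next to highest of these means were both intrakidney arrays.

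Wnt5a, a ligand best known for signalling without beta-catenin in cell movement, had the lowest unadjusted p of the ligands. It measured 6.83, 6.93 and 7.09 in the intrakidney tumors and 7.60, 7.21 and 7.01 in the subcutaneous tumors. Intrakidney tumor 3 lay above subcutaneous tumor 3, so the groups overlapped. The difference was -0.32 ± 0.15 (SE; limma, adjusted p = 0.646), and -0.16 without subcutaneous tumor 1, the highest array.

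Wnt7a, a ligand of limb and nervous system patterning, measured 6.19, 6.56 and 6.64 in the intrakidney tumors and 6.76, 6.55 and 6.73 in the subcutaneous tumors. Its difference of -0.22 ± 0.13 (SE; limma, adjusted p = 0.730) rested mostly on the low value of intrakidney tumor 1. Wnt2b, a ligand of developing lung and eye, measured 6.44, 6.64 and 6.69 against 6.67, 6.75 and 6.76, a difference of -0.14 ± 0.09 (SE; limma, adjusted p = 0.753). Here too intrakidney tumor 1 was the lowest array, and intrakidney tumor 3 lay just above the lowest subcutaneous array.

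The ligands with known parts in the kidney showed the same spread. Wnt4, needed for tubule formation, measured 7.69, 8.20 and 8.07 in intrakidney and 7.53, 7.93 and 8.28 in subcutaneous tumors, a difference of 0.07 ± 0.20 (SE), so its arrays of 1 group were farther apart than the groups. It was -0.12 without subcutaneous tumor 1 and 0.25 without subcutaneous tumor 3. The other row of Wnt4, which is dimmer, lay between 6.65 and 6.85 on all arrays. Wnt9b measured 6.98, 7.42 and 7.56 against 7.34, 7.47 and 7.49, Wnt11 6.34, 6.68 and 6.57 against 6.60, 6.51 and 6.62, and Wnt7b, a ligand of the collecting duct, 8.35, 8.62 and 8.65 against 8.53, 8.74 and 8.71. Intrakidney tumor 1 was the lowest array for each of these 3, and the other intrakidney arrays lay among the subcutaneous ones or, for Wnt9b and Wnt11, above them as well. The differences were -0.11, -0.05 and -0.12.

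Wnt1 and Wnt3a, ligands that act through beta-catenin, differed by -0.11 and -0.03, and Wnt3 and Wnt10b, which restrains fat cell formation, by -0.03 and -0.01. Wnt8a and Wnt8b, ligands of the early embryo, differed by -0.11 and -0.19, and Wnt2 and Wnt9a by -0.02 and -0.01. Wnt16, a ligand of bone, differed by 0.05, Wnt10a, a ligand of skin appendages, by 0.02 and Wnt6 by -0.13. Of the 19 differences of the family, 15 were below 0, beside 52% of all genes. These counts were 12 and 48.3% after quantile normalization and 13 and 48.1% after median centring. The sign of 11 of the 19 turned with 1 array left out, and 8 of those turned without intrakidney tumor 1. All 11 were at most 0.13 in size.

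Several ligand genes are neighbours on a chromosome with no other protein-coding gene between them in the gene-name reference: Wnt6 and Wnt10a, Wnt3a and Wnt9a, Wnt9b and Wnt3, and Wnt10b and Wnt1. Their differences were -0.13 and 0.02, -0.03 and -0.01, -0.11 and -0.03, and -0.01 and -0.11. None of these 4 pairs held a member past the test.

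Across the members, intrakidney tumor 1 was the lowest of the 6 arrays for 22 of the 37 members and for 14 of the 19 ligands. It was the highest for 0 of 37. Over all genes it was lowest for 27.5% and highest for 19.5%. Over the genes at or under the 40th percentile these shares were 41.8% and 6.91%. Intrakidney tumor 2 or subcutaneous tumor 3 was the highest array for 23 members (62.2%), beside 39.5% of all genes. Among genes at or under the 40th percentile, 30.7% were highest on intrakidney tumor 2 and 30.1% on subcutaneous tumor 3. After quantile normalization, intrakidney tumor 1 was the lowest for 20 members and for 13 ligands, beside 29% of all genes. The count of members that lay lower in intrakidney tumors was 27 of 37 with all arrays (22 after quantile normalization, 24 after median centring) and 16 of 37 without intrakidney tumor 1. The median difference over the members was -0.05 with it and 0.02 without it, beside -0.0058 and 0.01 over all genes. What set the dim values of this array lower was not tested.

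**Figure D3:**
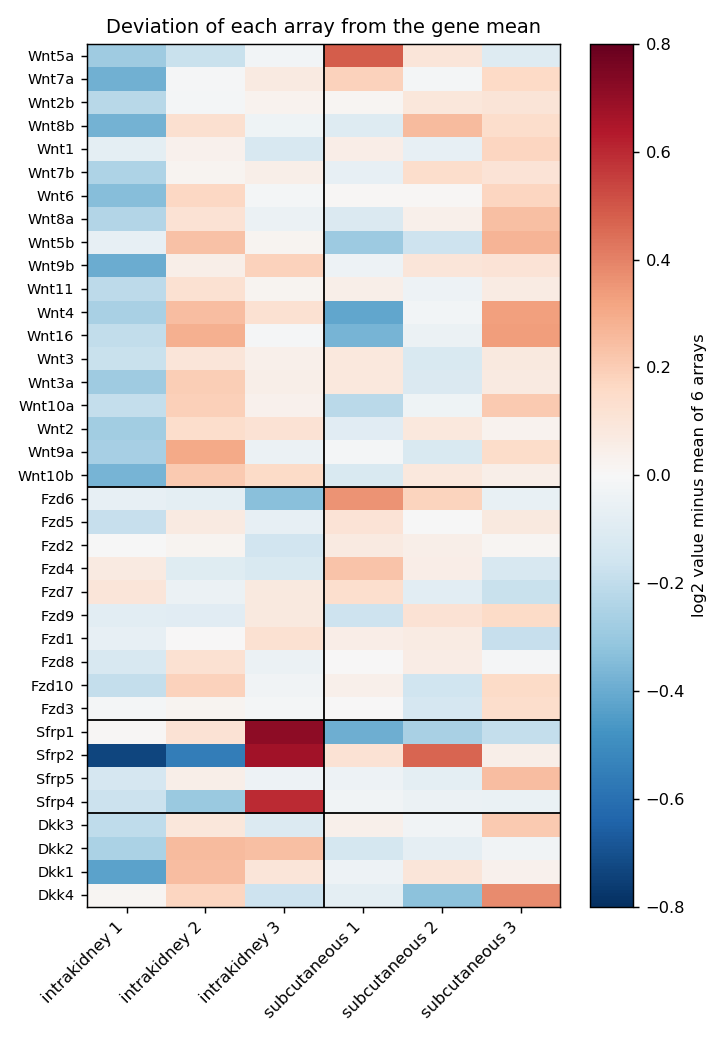
Deviation of each array (columns) from the mean of the 6 arrays, in log2 units by colour, for each of the 37 genes (rows, by family). The column of intrakidney tumor 1 is blue for most Wnt ligands, where it is the lowest array for 14 of 19, and Sfrp1, Sfrp2 and Sfrp4 are red on intrakidney tumor 3.

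The Frizzled receptor genes held the other member at an unadjusted p under 0.05. Fzd6, a receptor known for orienting hairs and for planar polarity, measured 10.06, 10.05 and 9.79 in the intrakidney tumors and 10.49, 10.31 and 10.07 in the subcutaneous tumors. The groups did not overlap, by a margin of 0.0087 between intrakidney tumor 1 and subcutaneous tumor 3. The difference was -0.32 ± 0.13 (SE), or 1.25-fold, with an interval of -0.61 to -0.03 and a limma adjusted p of 0.549. It kept its sign with each array left out, from -0.22 to -0.43.

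The other 9 receptor genes differed by -0.12 to 0.08. Fzd5, a receptor of the eye and gut, measured 7.61, 7.87 and 7.73 in intrakidney and 7.91, 7.79 and 7.88 in subcutaneous tumors (difference -0.12 ± 0.09, SE; limma, adjusted p = 0.791). Fzd2 measured 8.32, 8.35 and 8.17 against 8.39, 8.37 and 8.34 (difference -0.09 ± 0.07, SE; limma, adjusted p = 0.834). In both genes the intrakidney arrays reached into the subcutaneous range, by intrakidney tumor 2. Fzd4, which also binds Norrin in the growth of vessels, measured 8.74, 8.58 and 8.55 against 8.90, 8.72 and 8.54, a difference of -0.10 ± 0.11 (SE). Of 8 endothelial markers 8 were higher, from 0.01 (Pecam1) to 0.72 (Emcn), beside 9564 of all 19938 genes. At an unadjusted p under 0.05 there were 5 of these markers, beside 8.43% of all genes. Only Emcn passed the test, as did 0.231% of all genes. The part of endothelium in the Fzd4 values was not tested. Fzd7, a receptor of stem cells, differed by 0.08, Fzd1 by 0.04, Fzd9 by -0.06, Fzd8 by -0.04, Fzd10 by -0.02 and Fzd3 by -0.01. Averaged over the 10 receptor genes, the intrakidney arrays gave 7.61 ± 0.04 and the subcutaneous arrays 7.68 ± 0.05 (SD, n = 3 each). The ligand averages were 6.92 ± 0.20 and 6.99 ± 0.10 (SD, n = 3 each), a wider spread between arrays than that of the receptors.

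The Sfrp genes showed the widest spread of the families among the intrakidney arrays, though not among the subcutaneous ones. Sfrp1, a secreted Wnt antagonist, measured 6.66, 6.76 and 7.37 in the intrakidney tumors and 6.26, 6.39 and 6.46 in the subcutaneous tumors. All intrakidney arrays lay above all subcutaneous arrays, and intrakidney tumor 3 lay farthest above. The difference was 0.56 ± 0.18 (SE), or 1.47-fold, with an interval of 0.15 to 0.97 and a limma adjusted p of 0.421. It was 0.34 without intrakidney tumor 3 (limma, adjusted p = 0.517) and 0.29 without intrakidney tumors 2 and 3 (limma, adjusted p = 0.359), where 1 intrakidney array is left and the spread comes from the subcutaneous arrays alone. With array weights, which rested the intrakidney group mostly on tumor 3 (2.571, against 0.351 and 0.679 for tumors 1 and 2), it was 0.81 and passed (limma, adjusted p = 0.0360).

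Sfrp2, an antagonist made by fibroblasts, measured 7.35, 7.53 and 8.75 in the intrakidney tumors and 8.20, 8.55 and 8.13 in the subcutaneous tumors. Intrakidney tumor 3 was the highest of the 6 arrays, while intrakidney tumors 1 and 2 were the lowest. The difference was -0.41 ± 0.34 (SE; limma, adjusted p = 0.832), and -0.85 without intrakidney tumor 3 (limma, adjusted p = 0.183).

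Sfrp4, a further member of the family, was likewise highest on intrakidney tumor 3, with 5.90, 5.77 and 6.67 against 6.04, 6.02 and 6.02. Its difference was 0.08 ± 0.21 (SE; limma, adjusted p = 0.962) and turned to -0.19 without intrakidney tumor 3. Sfrp5 measured 6.23, 6.41 and 6.32 against 6.32, 6.29 and 6.61, a difference of -0.09 ± 0.10 (SE; limma, adjusted p = 0.910) and a sign that turned without subcutaneous tumor 3. Its intrakidney tumor 3 lay between the other intrakidney arrays. The SD within the intrakidney group was 0.38 for Sfrp1, 0.76 for Sfrp2 and 0.48 for Sfrp4, and 0.10, 0.23 and 0.01 within the subcutaneous group.

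Markers of other cell types also differed between the intrakidney arrays. Intrakidney tumor 3 was the highest of the 3 intrakidney arrays for 24.2% of all genes, for 7 of 10 fibroblast markers, 9 of 10 proximal tubule markers, 6 of 10 markers of distal tubule and collecting duct and 5 of 7 mesothelial markers. In the other 8 marker lists it was highest for 0 to 3 genes. It was highest for 3 of 8 renal carcinoma and epithelium markers, 3 of 8 for endothelium and 3 of 9 for adipocytes. The count was 2 of 8 for smooth muscle and pericyte, 2 of 8 for skeletal muscle and 2 of 7 for macrophages. For keratinocytes and hair follicle it was 1 of 9, and for T cells 0 of 7. The fibroblast markers summed, on the linear scale, to 7515, 6647 and 12440 on the arrays of intrakidney tumors 1 to 3, against 13090 to 14530 on the subcutaneous arrays. Dcn and Col3a1, of the same list, went the other way on intrakidney tumor 3. Dcn measured 10.55 there, against 9.05 to 9.51 on the subcutaneous arrays, and was also above them on intrakidney tumor 1 (9.58). Col3a1 measured 11.13 on intrakidney tumor 3, against 10.94 to 10.98. Of the 10 fibroblast markers 8 lay lower, with 1 past the test (Postn), beside 0.231% of all genes. At an unadjusted p under 0.05 there were 5, all lower, beside 8.43% of all genes. The groups did not overlap for 5, all lower, beside 14.9% of all genes. The summed level of the proximal tubule markers was 968.9, 1163 and 1688 against 1207 to 1351, with 9 of 10 higher and 0 past the test. The 1 marker at an unadjusted p under 0.05 was the lower one, Aqp1, a water channel also made by endothelium (difference -1.04 ± 0.19, SE; limma, adjusted p = 0.114). The mean log2 value of the list was 6.20, 6.71 and 7.20 against 6.37 to 6.56, so intrakidney tumor 2 lay under the subcutaneous range by the sum and above it by the mean. For distal tubule and collecting duct the sum was 721.5, 1001 and 1293 against 776.8 to 905.9, with 8 of 10 higher and 0 past the test (0 at an unadjusted p under 0.05). The mesothelial sums were 669.4 to 790.2 against 565.3 to 651.2, with 6 of 7 higher and 0 past the test. At an unadjusted p under 0.05 there were 2 of these 7, beside 8.43% of all genes. The part of these cell types in the Sfrp values was not tested.

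**Figure D4:**
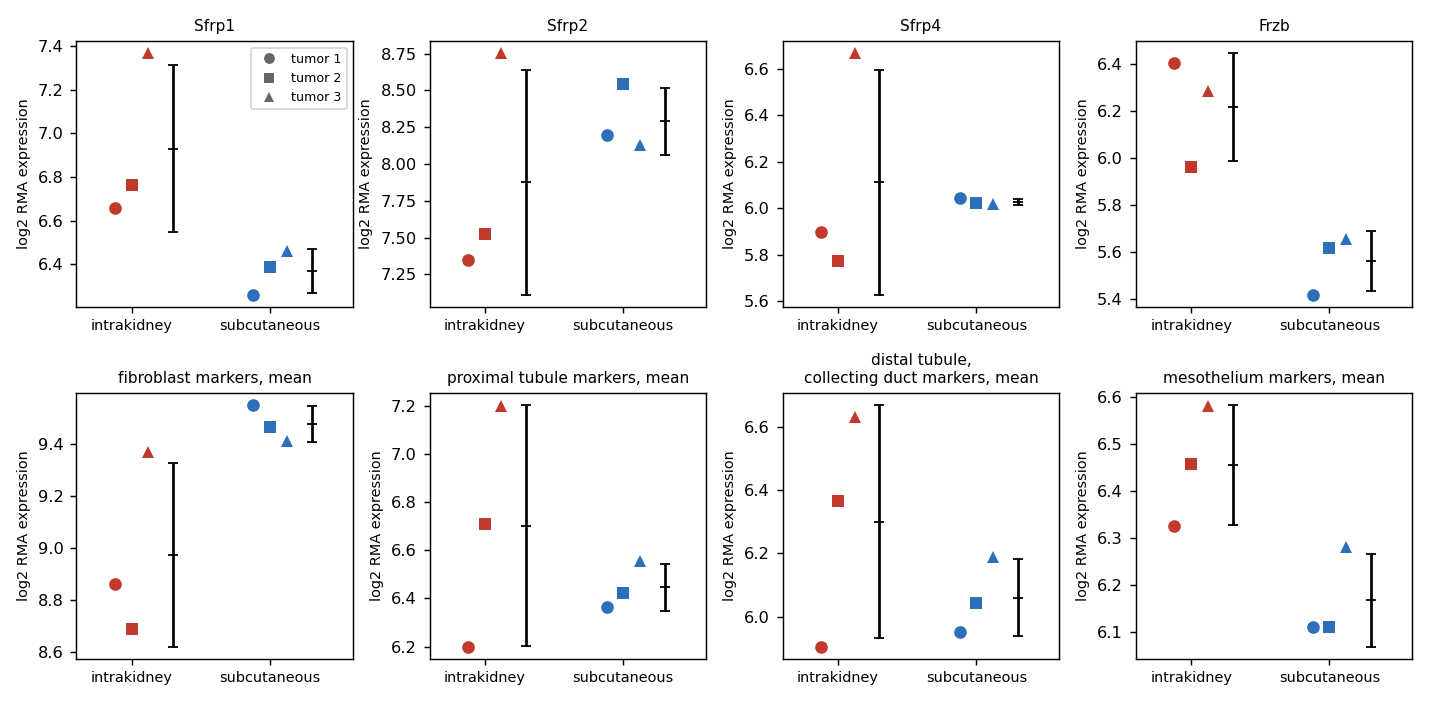
Log2 RMA expression (y axis) of Sfrp1, Sfrp2, Sfrp4 and Frzb, and the mean over the markers of 4 cell types, for each tumor by site (x axis); bars are the mean and SD of 3 tumors. Intrakidney tumor 3 (triangle) is the highest intrakidney array in every panel but that of Frzb.

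The Dkk genes did not separate the sites. Dkk3, an atypical member of the family, measured 6.97, 7.26 and 7.07 in intrakidney and 7.22, 7.15 and 7.38 in subcutaneous tumors (difference -0.15 ± 0.10, SE; limma, adjusted p = 0.786). Dkk2 measured 6.58, 7.09 and 7.07 against 6.70, 6.76 and 6.81 (difference 0.16 ± 0.14, SE; limma, adjusted p = 0.845). Its intrakidney arrays lay on both sides of the subcutaneous ones. Dkk1, the best known Lrp6 antagonist and itself a Wnt target, measured 6.27, 6.94 and 6.79 against 6.65, 6.79 and 6.73 (difference -0.06 ± 0.16, SE; limma, adjusted p = 0.967), again with intrakidney tumor 1 lowest. That difference was 0.14 without intrakidney tumor 1. Dkk4 differed by 0.02 ± 0.18 (SE), from -0.14 without subcutaneous tumor 2 to 0.21 without subcutaneous tumor 3.

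Other genes of the pathway were taken from 7 lists of 66 genes, of which 65 were measured and 0 passed the test over all genes. At an unadjusted p under 0.05 there were 13 of 65 (20%), 2 higher and 11 lower, beside 4.72% and 3.71% of all genes. The groups did not overlap for 19 (29.2%), 4 higher and 15 lower, beside 8.41% and 6.53% of all genes. The median difference over the 65 was -0.03.

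Genes that make Wnt proteins ready for release were lower on every intrakidney array without passing the test. Porcn, which attaches the lipid, measured 7.57, 7.59 and 7.74 in intrakidney and 8.08, 8.06 and 7.96 in subcutaneous tumors, a difference of -0.40 ± 0.08 (SE; limma, adjusted p = 0.151). Wls, which carries Wnt proteins to the cell surface, measured 11.35, 11.16 and 11.30 against 11.63, 11.50 and 11.35, a difference of -0.22 ± 0.10 (SE; limma, adjusted p = 0.591). Its groups were set apart by 0.0004 between intrakidney tumor 1 and subcutaneous tumor 3.

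Among the 6 co-receptor genes, Lrp5 measured 9.19, 9.28 and 9.20 against 9.49, 9.57 and 9.44, a difference of -0.28 ± 0.07 (SE; limma, adjusted p = 0.297). The groups did not overlap for Lrp5, for Ptk7, a co-receptor in planar polarity (-0.21), and for Ror2, a receptor of Wnt5a (-0.17). The partner of Lrp5, Lrp6, differed by -0.01. Of the 9 genes of the R-spondin axis, whose ligands enhance Wnt signals, 0 passed at either p, and the nearest were Rnf43 (-0.16), Rspo1 (-0.15) and Lgr5 (-0.16).

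Further inhibitors lay on both sides of 0. Frzb, also known as Sfrp3 and outside the symbol rule, measured 6.40, 5.96 and 6.29 in intrakidney and 5.42, 5.61 and 5.65 in subcutaneous tumors, a difference of 0.66 ± 0.13 (SE), or 1.57-fold (limma, adjusted p = 0.147). Apcdd1, a membrane inhibitor, measured 7.17, 7.53 and 7.24 against 7.76, 7.67 and 7.76, a difference of -0.42 ± 0.10 (SE; limma, adjusted p = 0.278). Kremen1, a Dkk receptor, differed by -0.23 (limma, adjusted p = 0.554). The groups were apart for all 3 of these genes, and 5 of the 10 genes lay higher and 5 lower.

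Inside the cell, Ctnnb1, the gene of beta-catenin, measured 11.63, 11.59 and 11.59 against 11.56, 11.60 and 11.60, a difference of 0.01 ± 0.06 (SE) with an interval of -0.14 to 0.16. Bcl9l, a beta-catenin co-activator, differed by -0.22, Axin1, a scaffold of its destruction complex, by 0.16 and Gsk3b, the kinase of that complex, by -0.19 (limma, adjusted p = 0.429, 0.593 and 0.680). Among 12 target genes, Axin2, the most general transcriptional target, measured 7.60, 7.52 and 7.59 against 7.61, 7.67 and 7.79, a difference of -0.12 ± 0.08 (SE; limma, adjusted p = 0.760). The Axin2 groups did not overlap, by a margin of 0.0059. Ccnd1, the cyclin D1 gene, which many growth signals control besides Wnt, measured 11.74, 11.76 and 11.81 against 10.91, 10.97 and 11.37. It differed by 0.68 ± 0.12 (SE), or 1.61-fold (limma, adjusted p = 0.117), and passed with an intensity trend and robust prior (adjusted p = 0.0178) and with array weights (adjusted p = 0.00814). Nkd2, a feedback inhibitor, differed by -0.15. Of the 10 planar polarity genes, 5 had groups that did not overlap, all lower in intrakidney tumors. Over all genes 14.9% had such groups, and 6.53% were lower. Among the 5 were the cadherins Celsr2 (-0.23) and Celsr3 (-0.22) and the formin Daam1 (-0.20), with limma adjusted p = 0.416, 0.450 and 0.465.

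**Figure D5:**
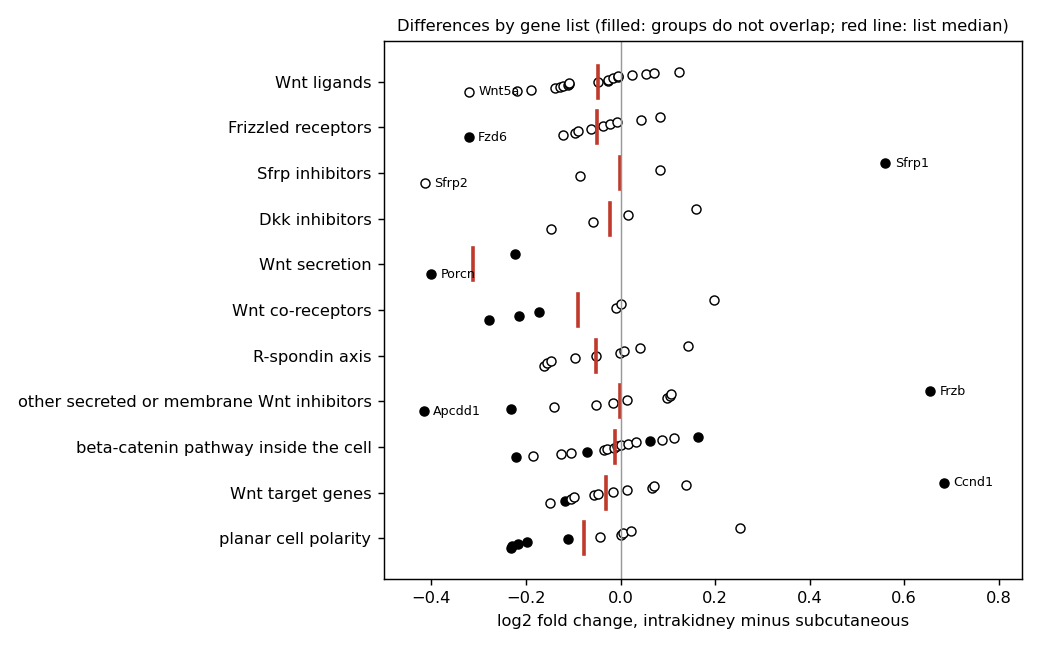
Log2 fold change, intrakidney minus subcutaneous (x axis), of each member and of each gene of the 7 other pathway lists (y axis); filled points have groups that do not overlap and red lines are list medians. Sfrp1 (0.56), Frzb (0.66) and Ccnd1 (0.68) lie farthest right.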

How the data were processed

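RNA of 3 intrakidney and 3 subcutaneous tumors was measured on 1 array each. The deposited values were log2 expression made by the authors with RMA and affy, per the submitters' processing notes and per the range of the values (2.31 to 15.07). A genome build is not given in the sources used here, so no coordinates are printed. RMA compresses differences of dim rows. Of 35512 rows, 21789 named 1 gene in the platform annotation, and the brightest row of each gene was kept, which left 19938 genes. All 37 members were matched by Entrez identifier to the gene-name reference; 1, Wnt4, had more than 1 row.

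The fit used lmFit and eBayes (limma 3.58.1, R 4.3.3; two-sided), with Benjamini-Hochberg adjustment over all genes and a threshold of 0.05. The fit was tested on simulated data. The labels named no batch, and no detection calls were used. The tumors were taken to come from separate mice, since the shared replicate numbers are not said to pair mice. The members and lists were chosen with earlier results of these data known. Array values were given for members without overlap or at an unadjusted p under 0.05 and for up to 3 more per family in order of unadjusted p. Up to 3 genes per pathway list were named in that order, with Axin2 and Ctnnb1 always, some by their difference alone. The array values of Wnt4, Wnt9b, Wnt11, Wnt7b, Fzd4 and Sfrp4 and the difference of Lrp6 were added for their roles or after their values were seen. Tcf7 was not analysed here, and 1 listed marker is not reported here.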

Additional observations from a re-analysis of the deposited data

How the results depend on the processing

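Of the members, 0 passed under each other setting run except array weights, where 1 passed (Sfrp1, 0.8065). Of the pathway genes, 0 passed except for 1 with an intensity trend and robust prior (Ccnd1, 0.6845) and 5 with array weights (Ccnd1 0.7861, Frzb 0.6476, Apcdd1 -0.4088, Lrp5 -0.3271 and Porcn -0.3574). Over all genes 46 passed. That count was 54 with quantile normalization and with median centring, 74 with an offset of 16, 101 without dim genes, 0 with every row tested, 138 with an intensity trend and robust prior, 624 with array weights, 30 without intrakidney tumors 2 and 3, and 2 (without subcutaneous tumor 1) to 33 (without intrakidney tumor 3) with each array left out. Of the members, 2 had an unadjusted p under 0.05: 1 without dim genes, where Sfrp1 was not among those tested, 1 with every row tested, 4 with array weights, 12 without intrakidney tumors 2 and 3 (1 intrakidney array, the spread from the subcutaneous arrays alone, so no check of that array), and 0 (without subcutaneous tumor 1) to 4 (without subcutaneous tumor 3) with each array left out.

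Over all genes, the share at an unadjusted p under 0.05 also moved with the setting. It was 8.43% in the main fit, 13.2% without dim genes, 6.91% with every row tested and 22.4% with array weights. The share was 6.04% without subcutaneous tumor 1 and 8.63% without subcutaneous tumor 3. The rise from 2 to 4 members with array weights thus went with a rise over all genes. With the replicate number as a block, 0 of all genes passed, beside 46 without it, and 0 members. In that fit 3 members (Fzd6, Sfrp1 and Wnt8b) had an unadjusted p under 0.05, beside 9.15% of all genes. Deviations from the group means correlated at 0.374, -0.159 and 0.104 between tumors of the same number, and at 0.429 between intrakidney tumor 2 and subcutaneous tumor 3, so the numbers were not taken to pair the samples.

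No sign turned with the offset, the dim filter, the mean over rows, every row tested, the trend or the block, among 58 genes examined one by one (37 without dim genes). Differences turned to 0.0026 (Wnt2), 0.0130 (Wnt9a), 0.0206 (Wnt10b), 0.0033 (Fzd10) and 0.0087 (Fzd3) with quantile normalization, and to 0.0044 (Wnt9a), 0.0047 (Wnt10b) and 0.0035 (Fzd3) with median centring. With array weights they turned to 0.0265 (Wnt9b), 0.0313 (Wnt11), 0.0964 (Wnt3), 0.1045 (Wnt3a), 0.0276 (Wnt2), 0.0697 (Wnt9a), 0.0638 (Wnt10b), 0.0874 (Fzd10), 0.0702 (Fzd3), 0.0053 (Dkk1), 0.0427 (Nkd2) and -0.0016 (Ctnnb1). Without intrakidney tumors 2 and 3 they turned to -0.0037 (Wnt5b), -0.2262 (Wnt4), -0.1687 (Wnt16), -0.1762 (Wnt10a), 0.0226 (Fzd4), -0.0418 (Fzd1), -0.1306 (Sfrp4), -0.1725 (Dkk2) and 0.0193 (Rnf43).

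With each array left out, 19 members turned, and the ranges were -0.2422 to 0.0103 (Wnt6), -0.2323 to 0.0605 (Wnt9b), -0.1199 to 0.0472 (Wnt11), -0.1203 to 0.253 (Wnt4), -0.1176 to 0.2341 (Wnt16), -0.0928 to 0.0565 (Wnt3), -0.1321 to 0.1084 (Wnt3a), -0.0769 to 0.1359 (Wnt10a), -0.0905 to 0.1177 (Wnt2), -0.1584 to 0.1244 (Wnt9a) and -0.1128 to 0.177 (Wnt10b). For receptors and inhibitors they were -0.0374 to 0.0865 (Fzd1), -0.1064 to 0.0184 (Fzd8), -0.1196 to 0.0674 (Fzd10), -0.0759 to 0.0615 (Fzd3), -0.1456 to 0.0172 (Sfrp5), -0.1926 to 0.2537 (Sfrp4), -0.1941 to 0.1405 (Dkk1) and -0.1445 to 0.2087 (Dkk4). The cause was not tested for any of these.

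The limits are few arrays, dim genes and whole tumors. With 3 arrays per group, 1 array decided the sign of 19 of 37 members. Of the members, 17 lay at or under the 40th percentile of all genes, where no background measure was used to tell a low level from none. The fold of such a row is compressed by RMA. Whole-tumor RNA does not part Renca transcripts from those of the host.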
